A study of Mus musculus with 4 samples.

Results

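The cells described here are Involucrin-traced (Tom+) cells sorted as basal cells of mouse dorsal interfollicular epidermis, the stratified epithelium between hair follicles. They are the wells of the 2 Tom+ libraries with at least 2000 UMIs on genes, which gave 93 cells, 35 in run 1 and 58 in run 2, of 161 such cells in the whole series. A UMI (unique molecular identifier) marks 1 captured transcript, and spike-in and reporter rows were not counted. The 3 cells just inside the minimum had 2163, 2170 and 2676 UMIs in run 1 and 2473, 2694 and 2737 in run 2. The 3 wells just outside had 1280, 1680 and 1741 in run 1 and 250, 322 and 932 in run 2.

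All cells came from female *Ivl-CreERT2*/*R26-tdTomato* mice on postnatal day 57. Per the labels, these mice had received tamoxifen by intraperitoneal injection at 10 µg per g body weight 2 days earlier. The study's methods give another dose, and which was used could not be settled here. *Ivl-CreERT2* places a tamoxifen-dependent Cre recombinase under the Involucrin promoter. *R26-tdTomato* turns red fluorescence on in cells in which Cre has acted, and in their descendants. A Tom+ cell, or a cell it descends from, therefore had Cre activity at some time after the injection. The Tom+ cell need not hold *Ivl* transcripts when sorted. The sort kept live CD49f+ LY6A+ CD34- cells, and therefore every value below describes cells with basal surface protein. Some kept cells of run 2 held *Krt79*, a marker of the follicle's infundibulum, so not every cell need be interfollicular. The design names 2 mice, but which mouse gave which run is not stated, so the spread between the runs may be technical. No cell type is compared with another here, each library stands on its own, and no value carries a p-value.

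Keratinocytes of the basal layer are tied to the basement membrane and build their cytoskeleton from the keratins K5 and K14. As they differentiate, they replace this pair with K1 and K10 and strengthen their desmosomes. They also begin to make the lipids and secreted proteins of the skin barrier. The study found that *Krt10* rises while cells are still in the basal layer. Involucrin itself is a precursor of the cornified envelope, the protein shell of the outermost cells. The genes used to mark the traced cells belong to the early part of this programme. *Krt10* and *Krt1* encode the suprabasal keratin pair, *Krtdap* and *Sbsn* encode secreted proteins of differentiating keratinocytes, and *Ly6g6c* encodes a protein of the LY6 family.

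The libraries read transcripts from their 5′ ends, so the bases in front of the annotated starts of some genes along which these cells differ are given here. *Krt14* is not shown because its entry in the sequence table lies inside the gene. Each line gives the 250 bases before the transcript start in that table, from RefSeq (GRCm38.p6), 5′ to 3′ on the gene's own strand. Capitals mark 2 short motifs, the TATA box letters TATAAA and the AP-1 letters TGANTCA, found by exact match on both strands. *Krt10*, *Krtdap*, *Sbsn* and *Ly6g6c* rose and fell together over the cells, and *Krt5* went the other way. *Krt10* lies at chr11:99389365-99389614 (minus strand), *Krtdap* at chr7:30787655-30787904 (plus), *Sbsn* at chr7:30751221-30751470 (plus), *Ly6g6c* at chr17:35067075-35067324 (plus) and *Krt5* at chr15:101712906-101713155 (minus).
Krt10: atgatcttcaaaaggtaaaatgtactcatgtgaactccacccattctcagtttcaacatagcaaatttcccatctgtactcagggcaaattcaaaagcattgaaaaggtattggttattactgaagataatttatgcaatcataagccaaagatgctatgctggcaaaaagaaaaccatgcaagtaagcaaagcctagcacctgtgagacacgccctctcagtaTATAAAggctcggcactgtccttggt
Krtdap: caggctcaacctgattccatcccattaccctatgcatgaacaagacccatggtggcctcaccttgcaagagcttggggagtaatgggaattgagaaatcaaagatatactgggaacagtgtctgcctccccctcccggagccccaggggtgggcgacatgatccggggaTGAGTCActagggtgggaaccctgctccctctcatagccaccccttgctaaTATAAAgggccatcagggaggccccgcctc
Sbsn: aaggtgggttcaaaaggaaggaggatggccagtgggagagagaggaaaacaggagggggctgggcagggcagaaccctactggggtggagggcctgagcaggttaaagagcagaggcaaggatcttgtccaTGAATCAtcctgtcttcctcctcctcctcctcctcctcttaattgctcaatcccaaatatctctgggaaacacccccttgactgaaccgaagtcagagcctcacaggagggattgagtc
Ly6g6c: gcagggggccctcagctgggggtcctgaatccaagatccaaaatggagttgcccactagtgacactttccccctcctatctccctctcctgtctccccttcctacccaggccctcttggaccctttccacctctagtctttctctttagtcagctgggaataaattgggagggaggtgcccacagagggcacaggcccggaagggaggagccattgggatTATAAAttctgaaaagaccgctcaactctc
Krt5: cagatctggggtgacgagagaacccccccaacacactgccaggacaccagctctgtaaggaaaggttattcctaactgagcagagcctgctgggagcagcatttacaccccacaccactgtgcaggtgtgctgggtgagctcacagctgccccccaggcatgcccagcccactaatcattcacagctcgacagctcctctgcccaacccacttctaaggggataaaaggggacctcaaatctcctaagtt

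The RefSeq bounds of the genes *Sbsn* and *Krt10* reach further upstream, so their windows lie before the start of a transcript but inside the gene bounds. The TATA letters lay 26 to 21 bases before the start of *Krt10* and 30 to 25 bases before the starts of *Krtdap* and *Ly6g6c*. AP-1 letters were found 81 to 75 bases before the start of *Krtdap* and 119 to 113 bases before that of *Sbsn*. *Krt5* held neither motif in this window. The 5 windows shown do not stand for the correlated groups described below. Of 16 genes of the *Krt10* group with a single window, 3 held TGANTCA and 5 held TATAAA. Of 7 such genes of the basal group, which includes *Krt5*, 1 held TGANTCA (*Ifitm3*) and 1 held TATAAA (*Col17a1*). Of 32851 windows of the same length over all RefSeq genes, 12.4% held TATAAA and 6.75% held TGANTCA. The GRHL letters AACCNGTT were also searched and were in 1.79% of all windows and in none of the 5 shown. These matches are a description of letters only. *Krtdap* and *Sbsn* are close neighbours, with *Dmkn* between them on chromosome 7, where the gap from *Sbsn* to *Dmkn* is 7.62 kb and that from *Dmkn* to *Krtdap* 6.84 kb.

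The kept cells held 157281 UMIs in run 1 and 305407 in run 2. A cell held 2163 to 10262 UMIs in run 1 with a median of 4047, and 2473 to 11578 in run 2 with a median of 4524.5. Medians of 1616 and 1653 genes were seen per cell. The libraries shared no cell column names, chip included, and no identical cells, and their summed counts differed by more than counting noise (chi-square of 2.37 per degree of freedom over 5978 genes). To compare cells of unequal depth, each cell was thinned at random to 2000 UMIs, and levels below are UMIs per 2000.

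The most abundant transcripts of the traced cells came from basal keratin genes, the mitochondrial genome, ribosomal protein genes and a nuclear RNA. *Malat1*, a long noncoding RNA retained in the nucleus, was the most abundant, with 6 to 112 UMIs per cell in run 1 (median 40) and 13 to 90 in run 2 (median 50.5). *Krt5* ranged from 0 to 50 (median 23) in run 1 and from 0 to 51 (median 22) in run 2. *Krt15*, a keratin of basal cells and follicle stem cells, ranged from 0 to 52 (median 15) and from 1 to 42 (median 15.5). The medians of *Krt5* and *Krt15* were almost the same in the 2 runs.

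Among the other leading genes, *mt-Rnr2*, the large ribosomal RNA of mitochondria, averaged 26.0 and 27.3 UMIs per cell, in run 1 and run 2. *Krt14* averaged 11.97 and 20.1, *Krt10* 12.3 and 9.68, and *Ccl27a_loc2*, a locus of a T-cell-attracting chemokine of skin, 10.2 and 15.1. *Perp*, a component of desmosomes, averaged 10.3 and 11.2, and *Lgals7*, a galectin of stratified epithelia, 10.7 and 10.9. The 25 most abundant genes took 16.8% of UMIs in run 1 and 18.3% in run 2 (mean 17.5%), and 21 of these 25 were the same in both. Only 35 and 53 genes had a UMI in every cell of their run at full depth, against 10287 and 10828 genes detected in at least 1 cell.

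The marker genes of the traced cells were widespread among them but at very unequal levels. *Krt10* ranged from 0 to 66 UMIs in run 1 (median 13) and over 0 to 32 in run 2 (median 8.5). UMIs were seen in 27 of 35 cells of run 1 (77.1%, 95% interval 59.9 to 89.6) and in 57 of 58 of run 2 (98.3%, 90.8 to 99.96). These are exact Clopper-Pearson intervals and cover counting error only. *Krt10* was therefore close to universal in run 2, while 8 cells of run 1 were at 0 after thinning.

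*Krt1* ranged from 0 to 55 (median 3) in run 1 and from 0 to 16 (median 3) in run 2, and was seen in 28 of 35 and 54 of 58 cells (93.1% in run 2). *Krtdap* ranged from 0 to 51 (median 2) and from 0 to 44 (median 5.5), and was seen in 71.4% and 86.2%. *Sbsn* ranged from 0 to 24 (median 2) and from 0 to 28 (median 2), and was seen in 74.3% and 75.9%. In each of these genes the highest cells held many times the median. *Ly6g6c* was the least abundant, from 0 to 12 (median 0) and from 0 to 9 (median 1), with UMIs in 48.6% and 53.4% of cells.

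Counting how many of the 5 markers a thinned cell held, 11 of 35 cells in run 1 (31.4%, 16.9 to 49.3) and 26 of 58 in run 2 (44.8%, 31.7 to 58.5) held all of them. At the other end, 1 cell of run 1 held none and 4 held 1, while run 2 had no cell without a marker and 1 cell with a single marker. At full depth each cell of both runs held at least 2. Transcripts of at least some markers were thus in every cell at full depth, and the whole set in 19 cells of run 1 and 34 of run 2.

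Some basal genes were seen in nearly all cells and others in fewer. *Krt5* was seen in 34 of 35 and 57 of 58 thinned cells, *Krt15* in 34 and 58, *Col17a1*, a collagen of hemidesmosomes, in 30 and 52, and *Trp63*, the transcription factor of stratified epithelia, in 14 and 26. Of the genes for the sorted proteins, *Itga6* (CD49f) was seen in 15 and 35 cells and *Ly6a* in 6 and 7. *Cd34* had no UMI in either run, which allows a share of cells with a UMI of up to 8.57% and 5.17% (3 cells of the total). *Ivl* itself had 5 UMIs in 2 cells of run 1 and none in run 2. The later markers of cornification were nearly absent, with a summed level of 13 measured genes, of 14 listed, between 0 and 4 UMIs per cell in run 1 and between 0 and 2 in run 2.

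**Figure D1:**
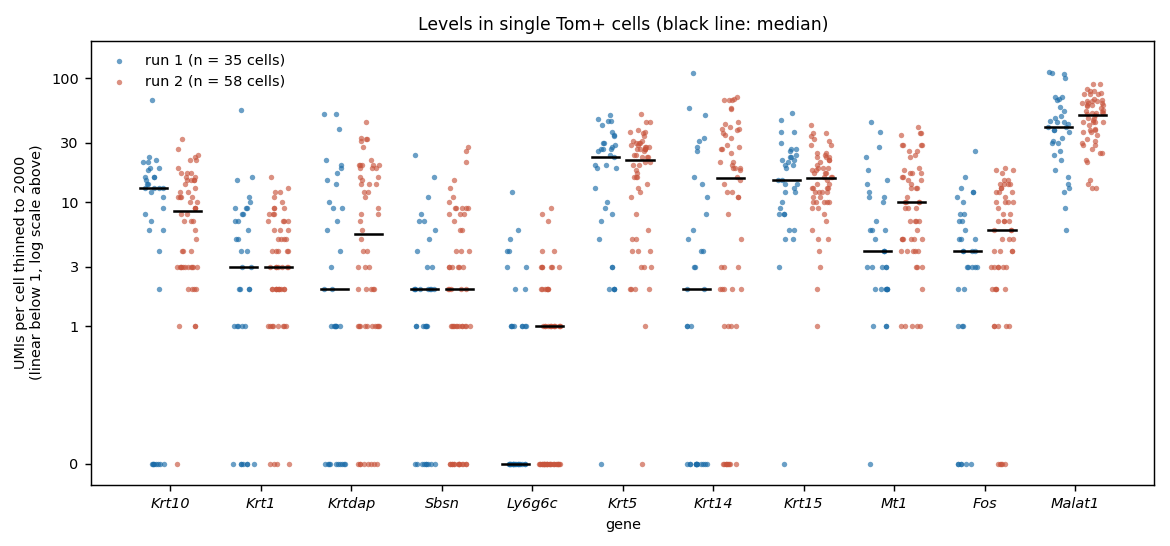
UMIs per cell thinned to 2000 (vertical axis, linear below 1 and on a log scale above) for 11 genes, with 1 point per Tom+ cell (35 in run 1, 58 in run 2) and a black line at each median. *Krt5*, *Krt15* and *Malat1* were present in almost every cell, whereas *Krt14* ran from 0 to 109 UMIs in run 1 and over 0 to 71 in run 2.

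*Krt14* had the widest spread among the traced cells. It ranged from 0 to 109 UMIs in run 1 with a median of 2, and from 0 to 71 in run 2 with a median of 15.5. After thinning it was at 0 in 13 cells of run 1 and 9 of run 2. Its partner *Krt5* was present in most of those cells, with medians of 5 and 4 UMIs. At full depth *Krt14* had UMIs in 24 of 35 and 56 of 58 cells. Some of those cells in run 1, and most in run 2, therefore did hold it. The cells at 0 for *Krt14* after thinning had *Krt10* at medians of 14 (0 to 22) and 11 (7 to 24). The 10 cells with the most *Krt14* had *Krt10* at medians of 0 (0 to 6) and 3 (1 to 7). In run 2 these ranges of *Krt10* met only at 7 UMIs, and in run 1 they overlapped.

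Turned around, the 10 cells with the most *Krt10* held *Krt14* at medians of 1 (0 to 6) in run 1 and 1.5 (0 to 11) in run 2, and *Krt5* at medians of 9 and 6.5. *Krt5* was present in all of them but at very different levels, from 2 to 45 UMIs in run 1 and from 2 to 37 in run 2. At full depth 32 of 35 cells of run 1 held *Krt10*, but 8 were at 0 after thinning. Those 8 had *Krt14* at a median of 29.5 UMIs and *Krt5* at 34.5. The single cell of run 2 without *Krt10* had 33 and 23. Sets of cells picked by one gene are a description of that gene's range and were not compared by a test.

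**Figure D2:**
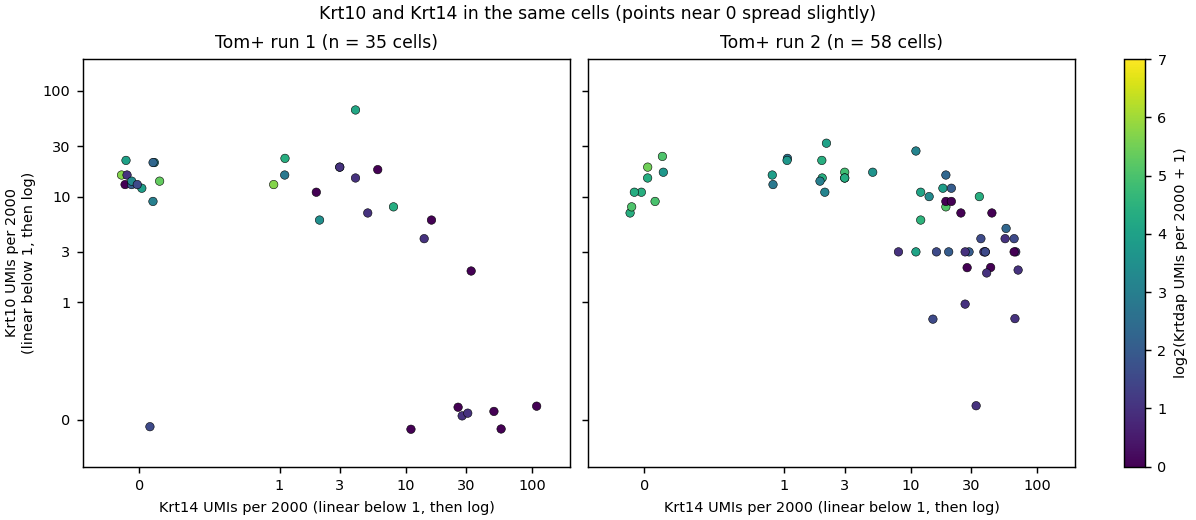
*Krt10* against *Krt14* UMIs per 2000 in each Tom+ cell (both axes linear below 1 and on a log scale above, run 1 left, run 2 right), coloured by log2(*Krtdap* UMIs + 1). Cells with the most *Krt14* lie low in *Krt10* and in *Krtdap*, and in both runs many cells hold transcripts of both keratins.

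Over all cells, the correlation of *Krt10* and *Krt14* was -0.78 in run 1 and -0.70 in run 2 (Pearson's r of ln(UMI + 1), mean -0.74). This was the most negative of 110685 pairs among 471 genes with a mean of at least 0.5 UMIs in both runs, ranked by the weaker run. The median over all pairs was 0.019 and 0.0033. Cells of 1 library share its depth and handling, so these correlations describe the 35 and 58 cells and carry no p. Both genes encode type I keratins and lie on chromosome 11.

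The most variable genes were keratins, secreted differentiation products and stress genes. Variability was measured as the variance of thinned UMIs over the mean, which is close to 1 for counting noise alone. Over 2530 genes its median was 1.28 in run 1 and 1.24 in run 2, and 207 and 130 genes were above 2, 77 of them in both runs. *Krt14* led both runs, with 42.8 and 21.9. Ranked by the weaker run, *Krtdap* followed among the genes measured in both runs with 19.5 and 13.2, then *Ccl27a_loc2* with 12.9 and 18.5, *Krt5* with 10.3 and 8.35, *Mt1* with 13.6 and 8.33 and *Malat1* with 18.2 and 7.97.

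*Sbsn* reached 11.1 and 7.92, *Krt10* 11.0 and 5.79, *Krt15* 8.32 and 4.74, and *Calm5*, a calmodulin-like gene, 6.71 and 5.16. Lower in the same list stood *Dmkn* (dermokine, a secreted epidermal protein) with 4.43 and 4.42 and *Ly6g6c* with 3.49 and 3.30. The ratio of *Krt1* was 13.9 in run 1 and 2.97 in run 2. Without the cell of run 1 that held most *Krt1* relative to its total, the ratio there was 5.70, so 1 cell carried most of that figure. The same step took *Krt10* in run 1 from 11.0 to 6.27, and *Krt14* from 42.8 to 27.5.

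The lists of the 50 most variable genes of each run shared 32 genes, or 64.0% of each list, where a list holds 1.98% of the 2530 genes. The ratio grows with the mean, so a second measure was used for the 471 genes with a mean of at least 0.5, the squared coefficient of variation above counting noise. This brought up scarce genes that a few cells hold in quantity. *Krt16*, a keratin of stressed and wounded skin, led by its weaker run, with 7.32 and 7.30. Behind it came *Igfbp3*, which binds insulin-like growth factors, with 5.43 and 5.31, *Thbs1*, an adhesive matrix glycoprotein, with 9.82 and 4.73, and *Cyr61*, a matricellular target of YAP, with 4.15 and 3.01.

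For these genes most thinned cells were empty. *Krt16* ranged from 0 to 12 UMIs in run 1 and over 0 to 31 in run 2, with medians of 0, and was seen in 8 and 28 cells. *Igfbp3* was seen in 10 and 15 cells, with up to 11 and 12 UMIs. *Thbs1* was seen in 6 and 14, with up to 9 and 6 UMIs. Without the cell highest in *Krt16*, its variance over mean fell from 6.69 to 1.92 (run 1) and from 12.3 to 5.74 (run 2). Single cells thus carried much of the spread of *Krt16*. For *Thbs1* the same step changed the ratio less, from 6.68 to 4.82 and from 4.47 to 4.01.

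**Figure D3:**
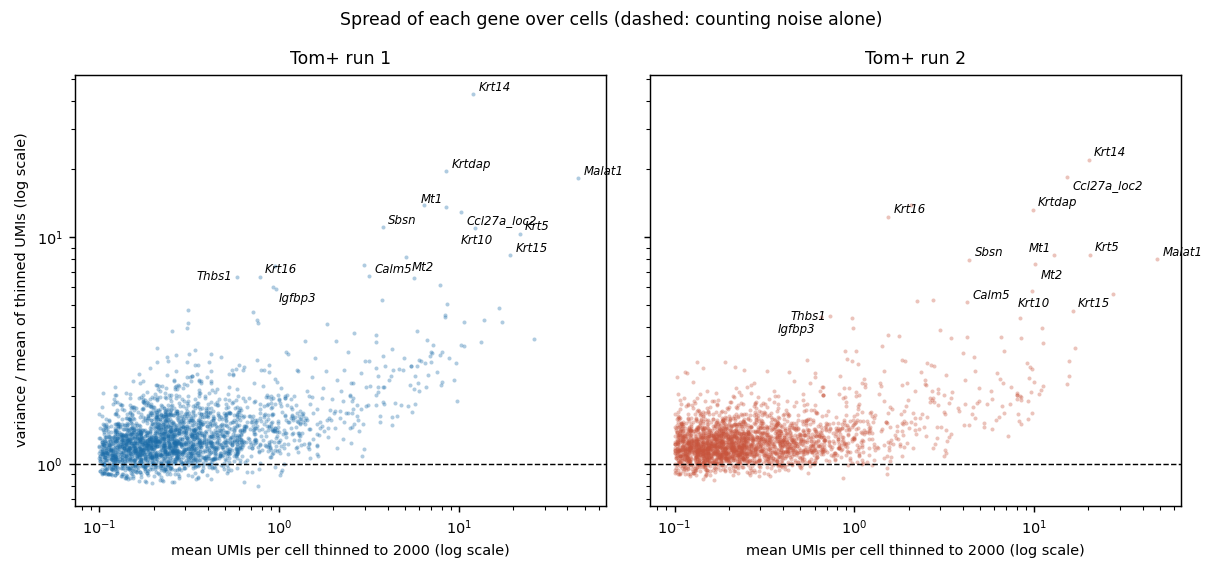
Variance over mean of thinned UMIs against the mean (both axes on a log scale) for 2530 genes in run 1 (left) and run 2 (right), with the dashed line at 1 for counting noise alone and names on the 14 genes with the highest ratio in the weaker run. *Krt14* stands highest in both panels, and the bulk of genes lies near medians of 1.28 and 1.24.

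Genes of the traced cells varied together in a small number of groups. Of the 110685 pairs, 4953 (4.47%) had r of at least 0.3 in run 1 and 1262 (1.14%) in run 2, and 895 had it in both. These 895 pairs are 18.1% of those of run 1 and 70.9% of those of run 2. In the negative direction, 139 pairs had r of -0.3 or lower in both runs, while only 2 pairs passed 0.3 with opposite signs in the 2 runs. Linking genes with r of at least 0.4 in both runs gave 8 groups with 83 genes. This linking value was chosen after the data had been seen, so the groups are a description and their internal correlations follow from how they were formed.

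The group that carries the marker genes had 22 members, of which *Krt10*, *Krt1*, *Krtdap*, *Sbsn* and *Ly6g6c* are 5. The others were the keratin gene *Krt77*, the desmosome genes *Dsp*, *Dsg1a* and *Perp*, the calcium-binding *Calm4*, *Calm5* and *Anxa8*, the lipid genes *Acer1* (a ceramidase), *Elovl4* (a fatty acid elongase) and *Dbi* (an acyl-CoA-binding protein), *Dmkn*, *Lgals7*, *Itm2b*, *Prdx5* (a peroxiredoxin), *Mt4* (the metallothionein of stratified epithelia), *Fam25c* and *Gm94*. Their summed level ran from 27 to 279 UMIs per cell in run 1 (median 91) and over 18 to 229 in run 2 (median 100.5). The median correlation within the group was 0.33 and 0.39.

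The closest pairs in it were *Krtdap* with *Sbsn* (0.66 in run 1 and 0.73 in run 2), *Calm5* with *Krtdap* (0.63 and 0.73), *Calm5* with *Sbsn* (0.64 and 0.64) and *Ly6g6c* with *Sbsn* (0.64 and 0.64). The keratin pair *Krt10* and *Krt1* reached 0.70 and 0.57. *Krt10* and *Krtdap* reached 0.58 and 0.69 (mean 0.64). Over the 10 pairs of the 5 markers the median was 0.57 and 0.59, and the loosest pair was *Krt1* with *Ly6g6c* (0.35 and 0.30). The secreted-protein genes were therefore tied more closely to one another than to *Krt1*.

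Of the other 470 genes, 21 had r of at least 0.3 with *Krt10* in both runs and 10 had r of -0.3 or lower. The closest was *Itm2b*, which encodes a membrane protein, with 0.60 and 0.66. *Perp* had 0.54 and 0.57, *Dsg1a*, a desmosomal cadherin, 0.52 and 0.48, and *Dsp*, the desmosomal linker desmoplakin, 0.42 and 0.52. *Elovl4* had 0.47 and 0.43, *Dbi* 0.45 and 0.41, *Mt4* 0.39 and 0.52 and *Acer1* 0.36 and 0.40. Other desmosome genes were less close, with *Pkp1* (plakophilin 1) at 0.23 and 0.20 and *Pkp3* (plakophilin 3) at 0.032 and 0.063, as was the cholesterol synthesis gene *Hmgcs1* at 0.041 and 0.17.

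Opposite them stood a basal group of 8 genes. It held *Krt5*, *Krt14* and *Col17a1*, the ferritin genes *Fth1* and *Ftl1*, which store iron, *S100a6*, a calcium-binding protein, *Ifitm3*, an interferon-induced membrane protein, and *Fcgbp*, which encodes an IgG-Fc-binding protein. Its summed level ran from 1 to 175 UMIs per cell in run 1 (median 31) and over 3 to 142 in run 2 (median 50). *Krt5* and *Krt14* had r of 0.51 and 0.71 (mean 0.61). *Krt14* was tied to *S100a6* at 0.69 and 0.67, to *Ifitm3* at 0.62 and 0.59, to *Ftl1* at 0.58 and 0.61 and to *Fcgbp* at 0.58 and 0.59.

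*Krt15* did not belong to this group, although it was one of the most abundant basal keratins. *S100a6* was present in few cells of run 1 (7 of 35) and in 29 of 58 of run 2, with up to 13 and 12 UMIs. *Krt10* had r of -0.67 and -0.61 with *S100a6*, of -0.62 and -0.53 with *Ftl1*, of -0.57 and -0.50 with *Krt5* and of -0.53 and -0.45 with *Ccl27a_loc2*. *Krt14* had r of -0.66 and -0.63 with *Itm2b* and of -0.61 and -0.75 with *Krtdap*. The ferritin gene *Ftl1* was thus opposed to *Krt10* about as strongly as the keratin gene *Krt5*.

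Of the 139 negative pairs shared by the runs, 90 (64.7%) joined the *Krt10* group to the basal group. Summed per cell, the 2 groups had r of -0.78 and -0.83. In run 2 no cell had a *Krt10*-group sum between 63 and 92 UMIs, with 26 cells below and 32 above. In run 1 no cell had a sum between 43 and 54, with 9 cells below and 26 above, and none had one between 62 and 73. Every cell of both runs held UMIs of both groups. Whether the cells form separate sets or a continuous range was not tested.

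**Figure D4:**
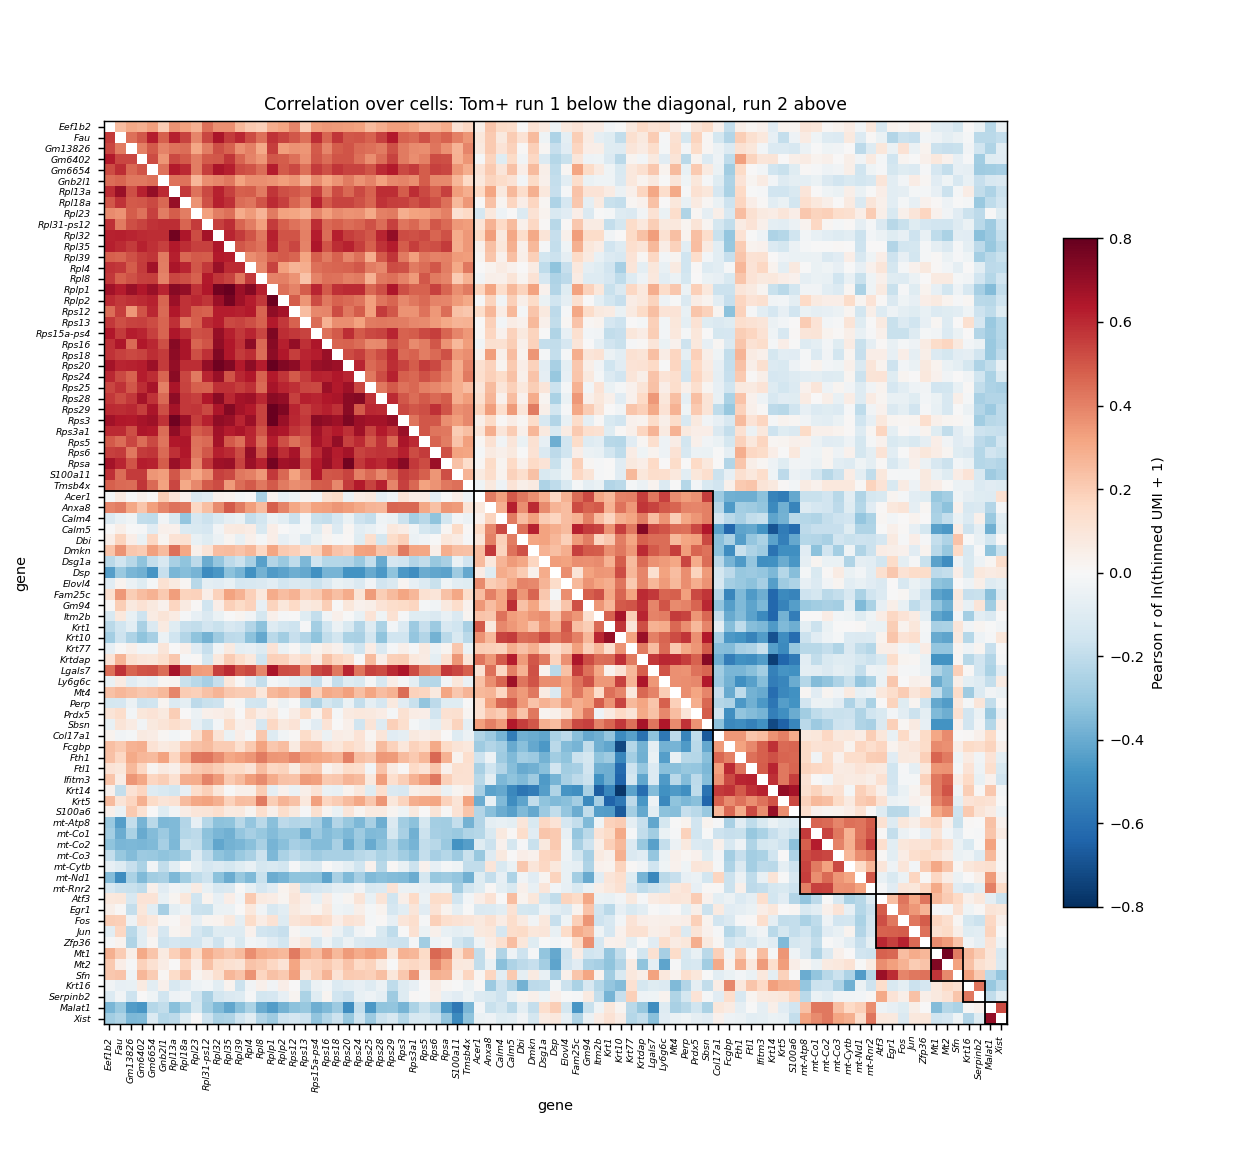
Pearson's r of ln(thinned UMI + 1) over cells for the 83 genes of the 8 groups, with run 1 (35 cells) below the diagonal and run 2 (58 cells) above it, and black frames around the groups. The *Krt10* group (22 genes) and the basal group (8 genes) are blue against each other on both sides of the diagonal, with medians of -0.34 and -0.40, and the ribosomal block (34 genes) is deeper red in run 1 than in run 2, with medians of 0.58 and 0.44.

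The largest group was ribosomal. It had 34 genes, among them *Rplp1*, *Rps29*, *Rpl32* and *Rps20*, the translation factor gene *Eef1b2*, *Gnb2l1* (a scaffold protein of the ribosome), *Tmsb4x* (an actin-binding thymosin) and *S100a11*. *Rplp1* ranged from 0 to 34 UMIs in run 1 (median 15) and over 1 to 40 in run 2 (median 15), and *Rps29* from 0 to 25 (median 13) and from 3 to 31 (median 16.5). The 2 genes had r of 0.79 and 0.65. Pairs within the group were 503 of the 895 shared pairs (56.2%). Some members are pseudogene rows such as *Rps15a-ps4* and *Rpl31-ps12*, whose reads cannot be told from those of their parent genes, so their separate values are uncertain.

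Over the 85 ribosomal protein genes, a cell held 26 to 424 UMIs in run 1 (median 242) and 56 to 379 in run 2 (median 256.5). The lowest values stood apart, at 26, 43, 58 and 64 in run 1 and at 56 and 67 in run 2, while all other cells had at least 100. The first 3 of run 1 also had the highest *Malat1* of these 6, with 112, 110 and 107 UMIs, and 140 to 264 mitochondrial UMIs. Their part in the correlations was measured directly. Without the 6 cells, 490 pairs had r of at least 0.3 in both runs instead of 895, and given the summed ribosomal level there were 236. These 2 alternatives were chosen after the data had been seen.

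The ribosomal block had a median r of 0.58 and 0.44 with all cells and of 0.39 and 0.31 without the 6 cells. Given the summed ribosomal level its own correlations are near 0 by construction. The group of *Mt1*, *Mt2* and *Sfn* went from 0.57 and 0.41 to 0.52 and 0.37 without the 6 cells, and the mitochondrial group from 0.48 and 0.43 to 0.42 and 0.44. The *Krt10* group had 0.33 and 0.39 with all cells and 0.34 and 0.40 without the 6, and the same 0.34 and 0.40 given the ribosomal level. Between the *Krt10* group and the basal group the medians were -0.34 and -0.40 with all cells and -0.38 and -0.41 under either alternative. The contrast of *Krt10* and *Krt14* was thus as large without those cells.

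The summed ribosomal group and the summed *Krt10* group had r of 0.062 and 0.074. Between their single genes, 11 pairs had r of at least 0.3 and 3 had -0.3 or lower in both runs, of 748. A cell's ribosomal sum was higher where fewer genes were seen (-0.68 and -0.64 over cells) and where more UMIs were counted per spike-in molecule (0.58 and 0.19). For the *Krt10* group the same values were -0.024 and 0.085 for genes seen and 0.15 and 0.34 for UMIs per spike-in. With the logarithm of total UMIs, the ribosomal sum had 0.43 and 0.15 and the *Krt10* group 0.096 and 0.32. Depth and RNA yield thus moved more with the ribosomal sum in run 1 and more with the *Krt10* group in run 2, and their part in either was not tested.

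**Figure D5:**
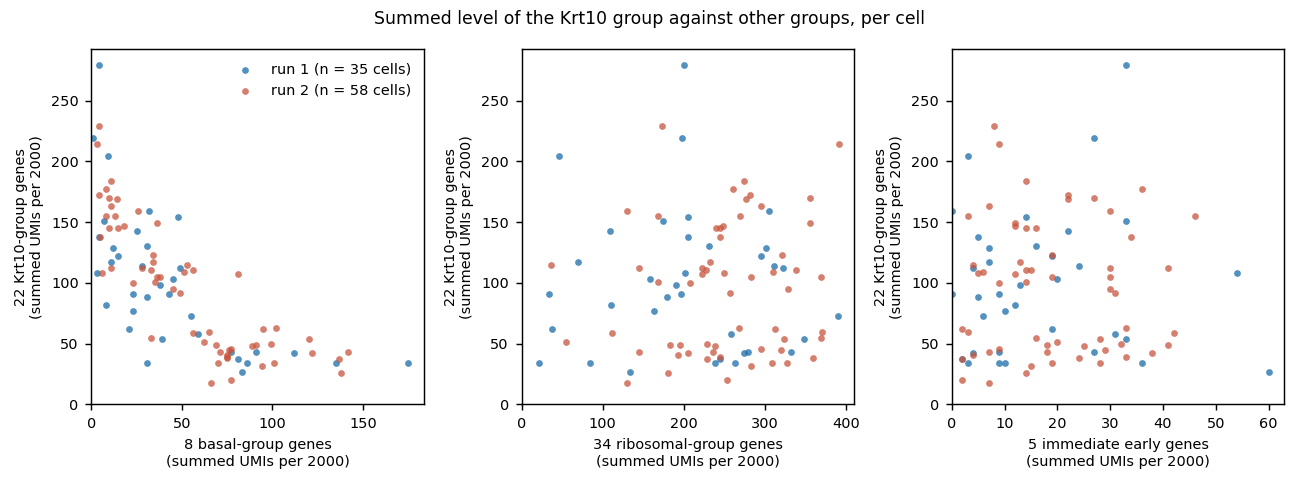
Summed UMIs per 2000 of the 22 *Krt10*-group genes (vertical axes) against the 8 basal-group genes, the 34 ribosomal-group genes and the 5 immediate early genes (horizontal axes), 1 point per Tom+ cell, 35 of run 1 and 58 of run 2. The first panel falls in both runs (r of the logged sums -0.78 and -0.83), and the other panels show no such slope (0.062 and 0.074, and -0.025 and 0.056).

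Mitochondrial transcripts made a group of 7 genes that included *mt-Co1*, *mt-Co2*, *mt-Cytb* and *mt-Rnr2*. *mt-Co1*, a subunit of the last respiratory complex, ranged from 7 to 42 UMIs (median 16) and from 5 to 38 (median 15.5). The group's sum ran from 53 to 212 UMIs in run 1 and over 11 to 166 in run 2. It had r of 0.018 and -0.27 with the *Krt10* group, and of -0.42 and -0.047 with the ribosomal group. The 2 runs thus differed in how mitochondrial transcripts related to the other groups, and the difference was not tested. *Malat1* and *Xist*, both nuclear noncoding RNAs, had r of 0.70 and 0.52 with each other.

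Immediate early genes, which cells switch on within minutes of a stimulus, formed a group of 5. *Fos* ranged from 0 to 26 UMIs (median 4) and from 0 to 19 (median 6), *Atf3* from 0 to 13 (median 2) and from 0 to 16 (median 4), and *Zfp36*, an mRNA decay factor, from 0 to 18 (median 1) and from 0 to 11 (median 2). *Fos* and *Zfp36* had r of 0.61 and 0.48. Over a wider list of 17, the median r between its 13 measured members above the minimum level was 0.37 in run 1 and 0.17 in run 2, and its sum had r of -0.0091 and 0.077 with the summed markers. These sums thus showed no slope along the markers in either run.

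*Mt1* and *Mt2*, metallothioneins that bind zinc and copper, were the most closely tied of all pairs by the weaker run, with r of 0.74 and 0.77. They are neighbours on chromosome 8, with a gap of 5.32 kb, and alike in sequence. *Mt1* ranged from 0 to 44 UMIs in run 1 (median 4) and over 1 to 40 in run 2 (median 10), and *Mt2* from 0 to 34 (median 3) and from 0 to 32 (median 8). *Sfn* (stratifin) joined them at 0.57 and 0.41 with *Mt1*. *Mt4*, of the same family, went the other way and belonged to the *Krt10* group. With *Krt5*, *Mt1* had r of 0.35 and 0.40, whereas *Mt4* had -0.32 and -0.51. With *Krt14*, *Mt1* had -0.0072 and 0.42 and *Mt4* -0.46 and -0.61, so *Mt1* was tied to *Krt14* in run 2 only.

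*Krt16* and *Serpinb2*, an inhibitor of plasminogen activators, made the last pair, with r of 0.42 and 0.43. *Serpinb2* was present in 23 and 40 cells with up to 11 and 13 UMIs. Their summed level had r of -0.28 and -0.19 with the *Krt10* group. The group holds few UMIs in most cells, with medians of 1 and 2, so its correlations rest on the cells with many.

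Principal components put the same groups in order. Component 1 took 11.8% of the variance of the 471 genes in run 1 and 6.66% in run 2 (mean 9.24%). Its 15 highest loadings all belonged to genes of the ribosomal group in both, 10 of them shared. Of its 15 lowest, only 1 was shared, with *Malat1* and *mt-Co2* lowest in run 1 and *H2-D1* and *Nfkbiz* in run 2. Component 2 took 4.91% and 5.26%. Its highest loading was *Krt10* in both runs, followed by *Sbsn* and *Krtdap* in either order, and its lowest was *Krt14* in both. Of the 15 highest genes 13 were shared, or 86.7% of each list, and of the 15 lowest 10, or 66.7%. Component 3 was led by immediate early genes at its lower end in run 1 (*Atf3*, *Nr4a1*, *Btg2*) but by *Clic1* and *Tuba1b* in run 2. Without the 6 cells poor in ribosomal transcripts, component 1 took 7.70% in run 1 and 5.59% in run 2. Those cells had the lowest scores on it, from -22.5 to -13.8 in run 1 and at -24.3 and -24.2 in run 2.

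Lists of genes of known function placed further families along the markers. The sum of 18 basal keratinocyte genes had r of -0.77 and -0.79 with the sum of the 5 markers. These basal genes did not all move together. Between the 8 above the minimum level, the median r was -0.0018 and 0.13. With *Krt10*, *Krt15* had r of 0.068 and -0.13, against -0.57 and -0.50 for *Krt5*. The sum of 18 early differentiation genes had 0.66 and 0.71 with the markers. A list of 13 desmosome genes had 0.68 and 0.67, with sums from 8 to 48 UMIs in run 1 and over 7 to 54 in run 2. It shares *Dsg1a* and *Perp* with the early differentiation list, so the 2 lists are not separate. *Perp* alone averaged 10.3 and 11.2 UMIs, in sums that averaged 26.7 and 24.2. Between the 7 desmosome genes above the minimum level, the median r was 0.20 and 0.21. Other lists were negative in both runs as well. The 11 YAP targets and matrix genes had -0.49 and -0.51, at sums of 0 to 13 UMIs in each run, and they include *Thbs1* and *Cyr61*. The 27 cell cycle genes had -0.39 and -0.51, and the 10 infundibulum and upper follicle markers -0.38 and -0.26.

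Cell cycle transcripts were scarce, with a median of 2 UMIs per cell in each run and at most 5 in run 1. In run 2 the sums of 2 cells stood out, at 27 and 22, against 10 in the next. The first held 66 UMIs of *Krt14* and 3 of *Krt10*, and the second 33 of *Krt14* and none of *Krt10*. The next cell had 10 cell cycle UMIs, with 10 of *Krt10* and 35 of *Krt14*. The 2 most active cells by this list, both of run 2, thus lay toward the *Krt14* end. The next cell was above the run 2 median in *Krt14* and also in the summed 5 markers (43 UMIs, median 26.5).

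Lipid and other small families leaned the same way as the markers. The sum of 10 prostaglandin and lipoxygenase genes had r of 0.22 and 0.42, that of 12 measured cholesterol synthesis genes 0.25 and 0.23, and that of 11 *Skint* genes, a family of epidermal membrane proteins, 0.31 and 0.45. Of 7 calmodulin genes listed, 6 were measured, with 0.40 and 0.41. The 9 class I antigen presentation genes had -0.29 and -0.26. Lists near 0 in both runs were heat shock (-0.074 and 0.0097), nuclear oxidative phosphorylation (-0.045 and -0.014), the *Notch* pathway (0.075 and 0.052) and the S100 and annexin genes (0.00034 and 0.13). In that last list *S100a6* and *S100a10* (-0.40 and -0.47) went against *Krt10*, whereas *Anxa1* (0.34 and 0.34) and *Anxa8* (0.26 and 0.43) went with it. The 18 epidermal transcription factors had 0.22 and 0.24. In sparse lists such values are weak and no finding.

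Transcripts of other cell types were rare, counted here at full depth. The 7 melanocyte and 6 fibroblast markers had no UMI in run 1, and the 5 endothelial markers none in run 2. T-cell markers had 2 UMIs in run 1 and 77 in run 2, of which 1 cell held 46. Markers of the infundibulum and upper follicle were the exception. They had 103 UMIs in run 1 with a highest cell of 14, and 640 in run 2 with a highest cell of 249, and 6 and 21 cells held at least 3 of the 10 markers. *Krt79*, the keratin that defines those cells, was at 0 in run 1 and was seen in 4 thinned cells of run 2, with 26 UMIs in the highest.

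After thinning, that cell also held 38 UMIs of *Krt17*, 17 of *Krt10*, 12 of *Krtdap* and none of *Krt14*. *Krt17* had a variance over mean of 1.68 in run 1 and 13.9 in run 2, where it was 4.96 without its highest cell. Leaving out all cells with at least 3 markers of any one other type kept 29 and 36 cells. The correlation of *Krt10* and *Krt14* was then -0.79 as the mean of the 2 runs, and 31 genes were shared among the 50 most variable. In the same cells 1247 pairs had r of at least 0.3 in both runs, and the means of the 2 runs were 0.66 for *Krt10* with *Krtdap* and 0.68 for *Krt5* with *Krt14*. No caller for doublets was run, and cells with many UMIs were kept. Without the 5% of cells with the most UMIs in each library, the correlation of *Krt10* and *Krt14* was -0.74 and 32 variable genes were shared.

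Depth moved little with the main contrast in run 1 and somewhat more in run 2. The correlation of a gene's thinned level with the logarithm of the cell's total UMIs was -0.13 for *Krt10* and 0.091 for *Krt14* in run 1, and 0.15 and -0.27 in run 2. *Krtdap* had 0.13 and 0.40. Given the total, the correlation of *Krt10* and *Krt14* was -0.73 as the mean of the 2 runs. Cells rich in *Krtdap* were therefore somewhat richer in UMIs in run 2, and the *Krt10* and *Krt14* contrast was as large with the total held constant.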

How the data were processed

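Single cells were captured on C1 chips with 96 wells and read from the 5′ ends of transcripts. The deposited tables hold whole UMI counts per gene and well, which the authors made from their reads. The submitters' processing notes name mm10 and GRCm38, and other details of counting are not given in the sources used here. Of 96 wells per library, 50 and 29 held no UMI and 11 and 9 fell below the minimum of 2000 gene UMIs. Spike-in and reporter rows were left out. Of 24378 gene rows, 1207 name separate loci of one symbol and were kept apart.

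Each cell was thinned to 2000 UMIs without replacement. Per-cell levels and shares are from 1 draw, and means, variance over mean and Pearson's r of ln(UMI + 1) are averages over 20 draws. Variability was given for genes with a mean of at least 0.1 and UMIs in at least 5 cells of both libraries, and correlations for genes with a mean of at least 0.5. Intervals are Clopper-Pearson at 95%. The "cell left out" of a gene's spread is the one with the largest share of its UMIs on that gene. The steps were tested on simulated data. Python 3.11.15, numpy 2.4.6, pandas 2.3.3, scipy 1.17.1, networkx 3.6.1 and matplotlib 3.10.9 were used.

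The members and lists were chosen with earlier results of these data known. Genes were named by list, by the 25 highest means, the 25 highest values of each variability measure, the 25 highest and 10 lowest pairs, the 15 closest to *Krt10* in each direction and the 15 extreme loadings of component 1. The other members of the correlated groups, and the leading genes of components 2 and 3, were named after their values had been seen. Other minimum depths, scalings, filters, correlation measures and cell exclusions were tried.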

Additional observations from a re-analysis of the deposited data

Results flagged for a closer look

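Transcripts of the reporter constructs are outside the gene rows and were used in no comparison. In the kept Tom+ cells the Tomato row held 29 UMIs in 16 of 35 cells of run 1 (45.7%, Clopper-Pearson interval 28.8 to 63.4) and 48 UMIs in 29 of 58 cells of run 2 (50.0%, 36.6 to 63.4). The cre row held 20 UMIs in 10 cells of run 1 (28.6%) and 25 UMIs in 19 cells of run 2 (32.8%). The DsRed row held 6 UMIs in 5 cells of run 2 and 1 UMI in run 1. Each of these sums except the last is above the 3 counts that a count of 0 allows. Absence of a reporter UMI in a cell is not absence of the reporter at this depth.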

How the results depend on the processing

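Of 87 values recomputed under alternatives, 68 stayed within the limit used for them, 19 moved past it, and 0 changed sign. The limit was the spread between libraries, except for the counts of shared genes and pairs, which have no such spread. Leaving out 1 library could not move a value past this limit, because each library lies within that spread of the mean by arithmetic. Without those values, 56 of 75 stayed within the limit and 19 moved past it. Among the 50 most variable genes, 3 were shared when ranked by the squared coefficient of variation above counting noise instead of 32. The 895 pairs with r of at least 0.3 in both libraries became 285 with at least 1000 UMIs per cell, 504 with at least 5000, 2629 with counts scaled and not thinned, 490 without cells poor in ribosomal transcripts and 236 given the ribosomal level. With at least 5000 UMIs, which left 10 and 25 cells, the correlation of *Krt10* was 0.806 with *Krtdap* and -0.813 with *Krt14*. The median correlation among the 5 markers (0.580) was 0.503 with at least 1000 UMIs, 0.719 with at least 5000, 0.597 without cells bearing other-type markers, 0.649 scaled, 0.552 in a single draw, 0.594 by Spearman's rho, 0.590 given the total, 0.609 without cells poor in ribosomal transcripts and 0.608 given the ribosomal level. Its spread between libraries was only 0.0079, so small shifts passed it. The share of component 1 was 13.4% scaled and 14.9% for genes with a mean of at least 1, and 6.64% without cells poor in ribosomal transcripts. The cause of these shifts was not tested. Using 1 library at a time, the share of the 25 leading genes was 16.8% to 18.3%, *Krt10* with *Krtdap* 0.585 to 0.688, *Krt10* with *Krt14* -0.777 to -0.699, *Krt5* with *Krt14* 0.506 to 0.706, the marker median 0.574 to 0.586 and component 1 6.66% to 11.8%. Both alternatives on ribosomal transcripts were chosen after seeing the data. No paired analysis was possible because a single group was described and no value came from a test. Genes with a mean under 0.5 were left out of the groups by choice, and with a minimum of 0.25 there were 945 pairs.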
